A study of Drosophila melanogaster with 4 samples.

Results

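Binding of GFP-tagged Usp was described across the Eip75B locus of *Drosophila melanogaster*, taken as every deposited ChIP-seq peak on chromosome arm 3L whose midpoint lay between 17.9 and 18.07 Mb (FlyBase release 5 coordinates). This window of 170 kb held 78 peaks, of 814 on 3L and 3053 in the whole list. The libraries were 2 ChIP and 2 input libraries from wandering larvae of the third instar, sex unknown, raised at 25 °C. All 4 came from the strain labelled USP-GFP, which carries a transgene of the USP genomic coding region. Its genotype is given as PBac{y[+]-attP-3B}VK00033. Input and ChIP thus share stage and genotype and differ in the immunoprecipitation with a polyclonal rabbit antibody to GFP. The fly stock in the protocol, y; bw cn sp, is not the tagged strain, and the labels give neither a dissected tissue nor a library without the tag. Whether the endogenous usp gene was still present is not stated in the labels.

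Usp, or Ultraspiracle, is a nuclear receptor related to the retinoid X receptors of vertebrates. With its partner EcR it forms the receptor for the steroid hormone 20-hydroxyecdysone. Eip75B, also called E75, is an early target of that receptor, known for a large puff on salivary gland polytene chromosomes that appears soon after the hormone. The gene encodes nuclear receptors related to vertebrate Rev-erb, which bind heme and repress the action of the receptor Hr3, and its isoforms start at separate promoters spread over a long transcription unit. Wandering larvae stand close to the hormone pulse that triggers pupariation.

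The gene table used here gives 7 RefSeq transcripts for Eip75B (locus tag Dmel_CG8127), and it is on Release 6, so its coordinates were not set beside the peaks. By order in that table, CG32192, CG42393 and the long noncoding RNAs lncRNA:CR45921 and lncRNA:CR45922 lie inside Eip75B or overlap it. CG5290 is the nearest protein-coding gene before it and CG44006 the nearest after it in that order. Which promoter, exon or intron each peak falls on was therefore not assigned, and the name Eip75B for the window was taken as given and not checked against a release 5 annotation. DNA sequence under the peaks was not analysed here.

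The window was chosen from this same peak list and with its results known, so the counts, widths and scores below are descriptions with no test. The authors gave 1 score per peak for the whole series, and no value per library, so no peak has a replicate spread and the depth of each library is unknown.

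Usp peaks covered 87.5 kb of the window, or 51.5% of it, with a density of 45.9 peaks per 100 kb. The rest of 3L had 3.04 peaks per 100 kb, which covered 1.35% of it. The locus made up 0.697% of the span from the first to the last peak of 3L (24.4 Mb), and it held 9.58% of the arm's peaks and 21.2% of the sequence they covered. The dense binding stopped within the window on both sides. The 170 kb to the left of the window held 2 peaks and the 170 kb to the right held 3, with coverage of 0.454% and 0.419%.

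The first peak of the locus ran from 17908036 to 17909836, with a width of 1801 bp and a score of 17.2. The nearest peak outside on the left, from 17897773 to 17898176, was 404 bp wide with a score of 9.77, and 9859 bp without a peak separated it from the first. The last peak of the locus, from 18058200 to 18058502, was 303 bp wide with a score of 9.46. To its right no peak followed for 120 kb, until one of 227 bp with a score of 18.45 from 18178962 to 18179188. The window's left limit lay 2.03 kb from the midpoint of the peak just outside and 8.94 kb from that of the peak just inside. On the right these distances were 109 kb and 11.6 kb.

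Coverage along the locus formed a broad block with thinner flanks. In bins of 10 kb from the left limit, it was 18.6, 50.2, 38.1, 30.3 and 28.3% in the leading 5 bins. It then stood at 72.6, 98.4, 88.4, 98.6, 95.3, 92.7 and 72.0% over the next 7, from 17950000 to 18019999. Beyond these it was 44.6, 24.3, 6.21 and 16.4%, and the last bin held no peak. Of these 17 bins, 5 were at least 75% covered, compared with 1 of the 2430 bins of the rest of 3L. That bin, from 3240000 to 3249999, was 94.4% covered, mostly by the widest peak of the arm.

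**Figure D1:**
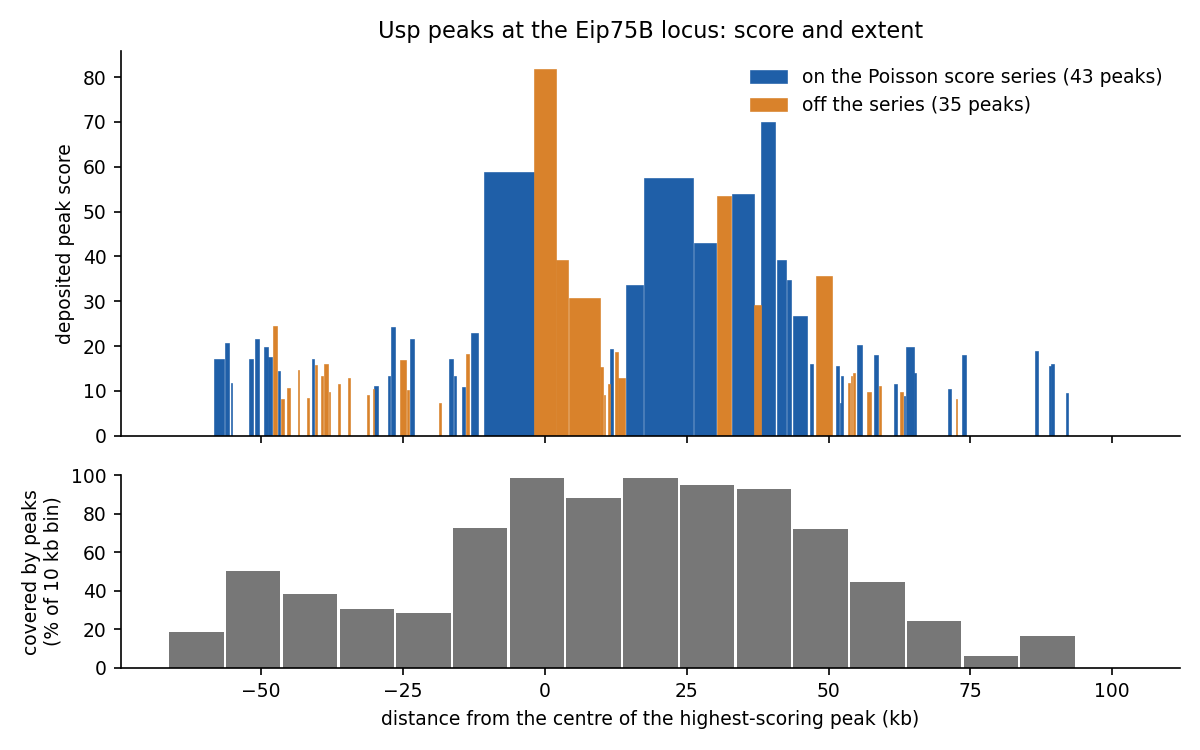
Upper panel: deposited score (y) and extent (x, kb from the centre of the highest-scoring peak) of the 78 peaks of the locus, coloured by whether the score lay on the Poisson series described in the text. Lower panel: percent of each 10 kb bin covered by peaks. The 13 peaks with scores of at least 30 fall in the 7 bins with 72.0 to 98.6% coverage, and the flanking peaks, up to 1801 bp wide, score at most 24.56.

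Joining peaks less than 1 kb apart, edge to edge, gave 17 stretches. One of these ran over 70.0 kb, from 17955582 to 18025619, and held 32 peaks that covered 88.7% of it. To its left lay 11 stretches with 34 peaks, from 17908036 to 17954530, covering 41.7% of 46.5 kb. To its right lay 5 stretches with 12 peaks, from 18027863 to 18058502, covering 19.4% of 30.6 kb. These 3 blocks differed in how wide their peaks were. The median width was 817.5 bp in the long stretch, compared with 519 bp to its left and 436 bp to its right. The median score followed the same order, 19.7, 14.5 and 12.8. All 13 peaks of the locus with a score of at least 30 lay in the long stretch, as did 15 of the 18 peaks wider than 1 kb.

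The long stretch opened with 4 wide peaks that left almost no sequence between them. The 1st ran from 17955582 to 17964406, was 8825 bp wide and scored 58.88. After a gap of 54 bp came the highest-scoring peak of the locus, from 17964461 to 17968294, 3834 bp wide with a score of 81.81. It was followed by peaks of 2068 bp (17968402 to 17970469, score 39.2) and 5456 bp (17970573 to 17976028, score 30.66). Together the 4 peaks covered 98.7% of 20.4 kb.

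A short trough followed. From 17976151 to 17980551 lay 6 peaks of 210 to 1270 bp with scores of 8.98 to 19.3, covering 78.8% of 4.40 kb. The narrowest peak of the locus was among them, at 210 bp from 17976759 to 17976968, with a score of 8.98. The low scores here lie between wide, high-scoring peaks on both sides. Of these 6 peaks, 5 had scores off the Poisson series described below, and the background they were scored against was not tested. The trough is therefore one of deposited score and peak width, and whether Usp binding was lower there was not tested.

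Beyond the trough, 10 peaks from 17980612 to 18012625 covered 95.5% of 32.0 kb and scored 26.63 to 70.05. The widest of them ran from 17983839 to 17992571, with 8733 bp and a score of 57.61. Next to it lay peaks of 3856 bp (17992728 to 17996583, score 43.1), 2435 bp (17996791 to 17999225, score 53.58) and 3873 bp (17999338 to 18003210, score 53.85). The second highest score of the locus, 70.05, belonged to the peak from 18004479 to 18006991, of 2513 bp. Its centre lay 39.3 kb from that of the highest-scoring peak, which was on the other side of the trough. The next scores, 58.88 and 57.61, also lay on opposite sides of it.

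The remaining 12 peaks of the stretch, from 18013125 to 18025619, covered 63.6% of 12.5 kb. One of them stood out in width and score, at 2958 bp and 35.65 from 18014093 to 18017050. Another was the second narrowest of the locus, at 215 bp from 18018354 to 18018568, with a score of 7.31. The third narrowest, of 216 bp from 18020292 to 18020507, scored 13.4.

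The left flank was a series of small groups of narrower peaks. The best covered of the groups with at least 5 peaks ran from 17914333 to 17921557, where 8 peaks of 484 to 799 bp covered 71.3% of 7.23 kb and reached the flank's highest score, 24.56 (17918498 to 17919218). A group of 6 peaks from 17924540 to 17928559 scored 8.48 to 17.2. A group of 5 from 17938672 to 17943362 reached 24.24 (17939225 to 17939973). Right after it came the third longest gap of the locus, 4417 bp, up to a peak of 258 bp from 17947780 to 17948037. That peak had the lowest score of the locus, 7.28. Next to the long stretch, 3 peaks from 17951853 to 17954530 covered 84.5% of 2.68 kb, and the last of them was 1225 bp wide with a score of 22.85. A gap of 1051 bp separated it from the long stretch, just over the joining distance.

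The right flank thinned out in steps. Its leading group, 5 peaks from 18027863 to 18031833, covered 74.8% of 3.97 kb, and its strongest peak (18030040 to 18031371) was 1332 bp wide with a score of 19.73. The second longest gap of the locus, 5668 bp, then led to 3 peaks from 18037502 to 18040620 with scores of 10.45, 8.19 and 18.03. The longest gap, 12138 bp, followed. Past it lay the last 4 peaks, of 303 to 546 bp, the strongest of which (18052759 to 18053304) scored 18.87.

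Neighbouring peaks of the locus were separated by a median of 230 bp (interquartile range 107 to 899 bp, 77 gaps). On the rest of 3L the median gap was 1424.5 bp (406 to 13944.5 bp, 734 gaps). Of the gaps in the locus 51.9% were shorter than 250 bp, against 17.2% on the rest of the arm. In the long stretch the median gap was 132 bp, the longest was 913 bp and 22 of 31 were shorter than 250 bp. The shortest gap of the locus was 45 bp, and that of the rest of 3L was 44 bp. Both were shorter than the narrowest peak of 3L, 201 bp. Joined at 500 bp the locus formed 30 stretches, and joined at 2 kb it formed 8.

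**Figure D2:**
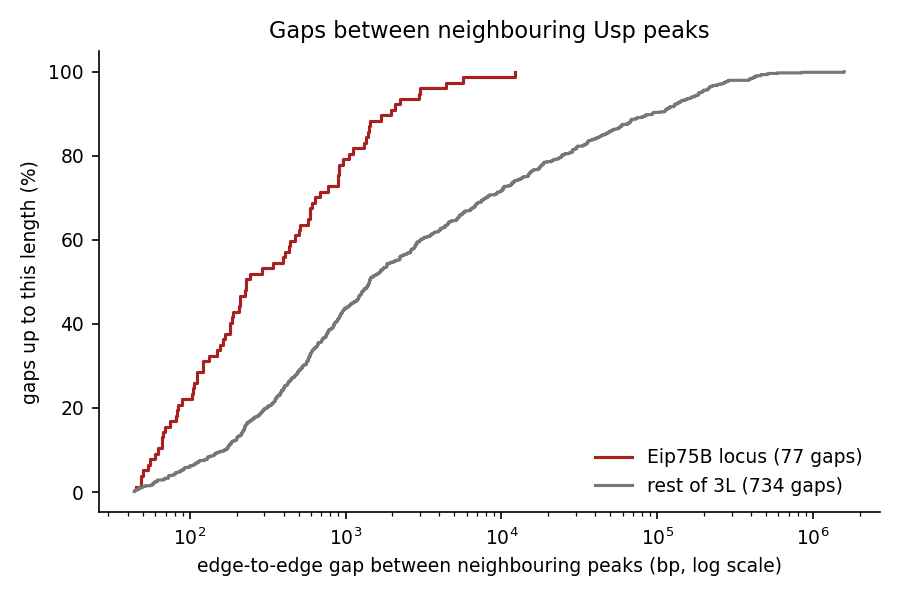
Cumulative percent (y) of edge-to-edge gaps between neighbouring peaks up to a given length (x, bp, log scale), for 77 gaps in the locus and 734 on the rest of 3L. The locus curve lies to the left, with a median of 230 bp compared with 1424.5 bp.

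Peaks of the locus had a median width of 555 bp (95% order-statistic interval 444 to 691 bp, interquartile range 360 to 869.5 bp), compared with 323 bp (309 to 339 bp) for the other 736 peaks of the arm. The 95% intervals treat peaks as independent draws, which neighbours in a single peak call are not, so they test no difference. Of the 78 peaks, 18 were wider than 1 kb, or 23.1%, while over all of 3L 7.74% were. These 18 made up 67.0% of the sequence covered in the locus. On the rest of the arm, peaks wider than 1 kb made up 22.0% of it. The 5 widest peaks of the locus alone made up 35.1% of its covered sequence. In the ranking of 3L by width, 8 of the leading 10 peaks and 13 of the leading 20 belonged to the locus. Only 1 peak of the arm was wider than its widest, 9457 bp compared with 8825 bp.

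Scores of the locus spanned most of the range of the arm, from 7.28 to 81.81. Their median was 15.8 (95% order-statistic interval 13.3 to 18.0), compared with 12.2 (11.8 to 12.4) for the other peaks of 3L. These intervals have the same limit as those of the widths and test no difference. The top 25% of 3L scores, from 16.38 up, held 36 of the 78 peaks (46.2%), where all of 3L by the same limit and its ties had 25.4%. Of the leading 10 scores of 3L, 3 were in the locus, and 3 peaks elsewhere on the arm scored above its highest, up to 103.3. At the lower end, 24 of the 78 peaks of the locus scored below the median of the arm, where 390 of all 814 peaks of 3L did.

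In bands of like score, chosen after the list had been seen, the median width was higher in the locus in each band. At scores of at least 30, 13 peaks of the locus had a median width of 3144 bp (702 to 8825 bp), compared with 571 bp for 33 others on 3L (307 to 9457 bp). From 20 to 30 the medians were 823 bp (9 peaks) and 613 bp (62 peaks). From 15 to 20 they were 567 bp (21 peaks) and 428 bp (123 peaks). From 10 to 15 they were 367 bp (23 peaks) and 311 bp (343 peaks), and below 10 they were 277 bp (12 peaks) and 247 bp (175 peaks). The ranges overlapped in every band. Across the 78 peaks, width and score had a Spearman correlation of 0.82 and a Pearson correlation of 0.86 on log10 values, compared with 0.56 and 0.56 across the other peaks of 3L. These are descriptions across peaks that share libraries, neighbours and a single peak call. A taller signal can be wider at a given cutoff, and whether this applied here was not tested.

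**Figure D3:**
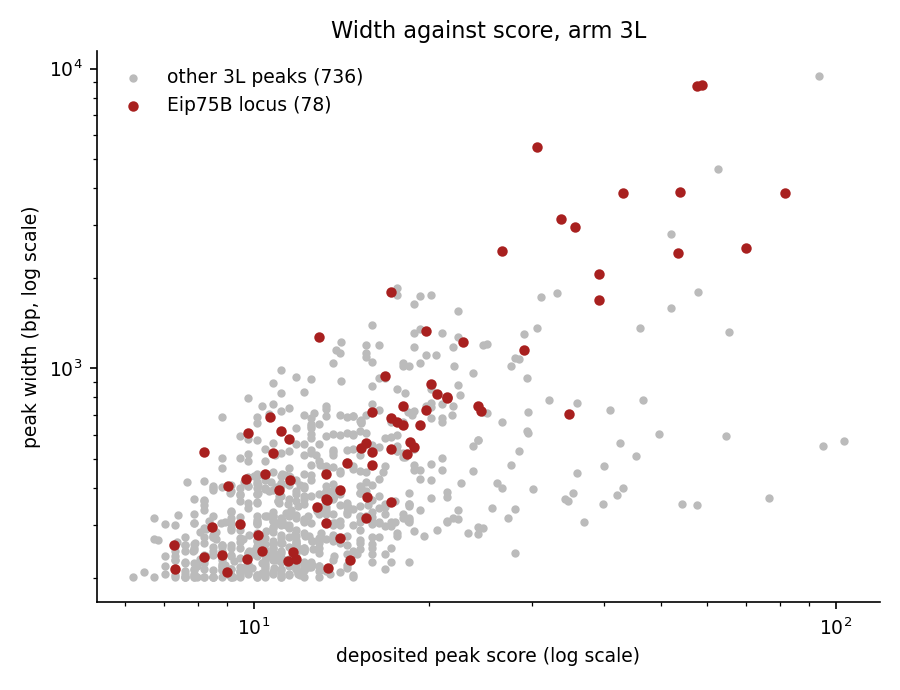
Peak width (y, bp) against deposited score (x), both on log scales, for the 78 peaks of the locus and the other 736 peaks of 3L. Among scores of at least 30 the peaks of the locus have a median width of 3144 bp and the others 571 bp.

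The unit of the score is not given. Many of its values lie close to a series of −log10 probabilities of k or more fragments under a Poisson background, with k a whole number. The background, fitted on the whole list, was 43.9 fragments. The unit was inferred from this fit, and every pileup and fold below rests on it. A score within 0.01 of this series was read as a pileup of k fragments, k divided by the background gives its fold, and intervals of folds are exact Poisson intervals at 95% for counting error only. In the locus 43 of 78 peaks lay on the series, or 55.1% (exact binomial interval 43.4 to 66.4%), compared with 73.8% of all peaks of 3L. That interval treats peaks as independent draws, which neighbours in a single peak call are not, so it tests no difference. A further 6 peaks of the locus, with scores of 8.19, 9.77, 16.8, 29.1 or 81.81, lay between 0.01 and 0.015 from the series. Scores of 8.19 and 9.77 also occur elsewhere on 3L, each at 10 or more peaks, so both were among the values used to fit the background. They lay 0.0127 and 0.0133 from the series, and the limit of 0.01 is what counts them as off it. What background the remaining 29 peaks of the locus were scored against was not tested, and no fold is given for its 35 peaks off the series.

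The implied fold of the 43 peaks on the series had a median of 2.57 (interquartile range 2.35 to 2.81). It ranged from 1.91 times the background (1.53 to 2.37) at the 215 bp peak to 4.72 times within that tolerance. For the 558 other peaks of 3L on the series the median was 2.26 (2.14 to 2.48), with a maximum of 5.51. Within 0.01 of the series, the highest fold of the locus, 4.72 (4.10 to 5.40), a pileup of 207 fragments, was at 18004479 to 18006991. The second, 4.33 (3.74 to 4.99), was at 17955582 to 17964406, and the third, 4.28 (3.69 to 4.94), at 17983839 to 17992571. Counting error alone does not separate these 3, and 3 further peaks of the locus had intervals reaching that of the highest. The order depends on the tolerance: within 0.015 of the series, the highest-scoring peak (17964461 to 17968294) would have a pileup of 224 fragments and lead with 5.10 times the background (4.46 to 5.82), an interval that overlaps that of the peak at 18004479. In the long stretch the median fold was 3.19 over 16 peaks, in the left flank 2.55 over 17 and in the right flank 2.42 over 10. The left flank ranged from 2.16 to 2.92 and the right flank from 2.03 to 2.69, so the folds of the flanks overlapped.

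**Figure D4:**
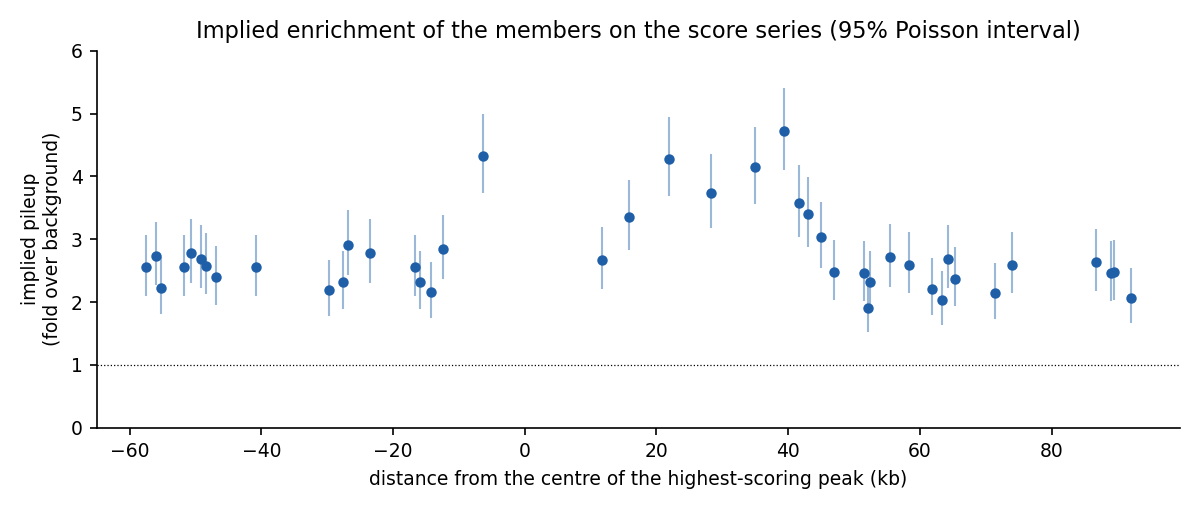
Implied fragment pileup over the genome-wide background (y, fold, with exact 95% Poisson intervals for counting error) for the 43 peaks on the score series, by distance from the centre of the highest-scoring peak (x, kb). The dotted line marks the background; folds above 3 lie within the long stretch, and the flanks stay between 2.03 and 2.92.

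Peaks off the series included long runs of neighbours. From 17919906 to 17936304, in the left flank, 12 of 13 neighbouring peaks were off it, with scores of 8.19 to 17.2 in the group. The first peak of this group, with a score of 8.19, lay within 0.015 of the series. In the long stretch 6 peaks in a row were off it, from 17964461 to 17977786, and they included the highest-scoring peak. That peak, at 81.81, was among the 6 that a tolerance of 0.015 would place on the series. In the right flank 10 of 12 were on the series at a tolerance of 0.01, compared with 17 of 34 in the left flank and 16 of 32 in the long stretch. Over all of 3L the share was 73.8%. The exact binomial intervals were 51.6 to 97.9% for the right flank, 32.4 to 67.6% for the left flank and 31.9 to 68.1% for the long stretch. They treat peaks as independent draws and test no difference. A tolerance of 0.015 would raise the count in each of these blocks. These runs were picked after the list had been seen, and the local input level, which could move a score off the series, was not measured here.

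Other many-peaked regions of 3L were smaller and less fully covered. Joining peaks at 5 kb, the main region of the locus was 124 kb long, with 71 peaks and coverage of 68.3%. Of 16 regions of 3L with at least 10 peaks, the other 15 were at most 36.0 kb long and were 22.3 to 65.6% covered, with a median of 37.6%. The one with most peaks after the locus, from 8667807 to 8703846, had 33 peaks, a median width of 352 bp and a highest score of 25.66. The next, from 17557267 to 17587707, had 25 peaks, a median width of 601 bp, a widest peak of 1797 bp and a highest score of 57.97. On the series were 25 of the 33 peaks of the former and 18 of the 25 of the latter, against 37 of the 71 in the main region of the locus. The region at 17557267 thus had a median width above the 580 bp of the main region of the locus, while its widest peak was far narrower than 8825 bp.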

How the data were processed

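ChIP and input chromatin was cross-linked for 15 min in 1.8% formaldehyde, per the labels' protocols. The authors deposited 1 peak list with a score per peak, called with MACS on FlyBase release 5, per the file headers. The submitters' processing notes name MACS2, BWA, the build BDGP5 and CASAVA (versions 1.7.0.2 and 1.7.0.3), without saying what each was used for. For the threshold, filters and pooling of replicates, no setting is stated in the labels or the header. The peak list and all 78 members were used as deposited, with no filter.

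The members, lists and measures were chosen with earlier results of these data known. Named peaks were the first and last member, those just outside, the 5 highest scores, the 5 widest, the 3 narrowest, the 3 highest folds and the 3 longest gaps. Peaks of each stretch and the runs off the series were added after seeing values. Planned motif counts in promoters were not run for want of sequence.

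The background was fitted on 52 score values shared by at least 10 peaks (mean error 0.00298 score units). The fitting steps were also run on 10 simulated lists of 3053 peaks each. Scores of these lists were drawn from the same Poisson form, so they cannot show whether the deposited score has that unit. The background was recovered to within 0.00139, at least 99.7% of pileups without a raised background were recovered, and at most 7.43% of those with one fell on the series. Values were computed in Python 3.11.15 with scipy 1.17.1, pandas 2.3.3 and numpy 2.4.6, and drawn with matplotlib 3.10.9.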

Additional observations from a re-analysis of the deposited data

How the results depend on the processing

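No paired analysis was possible because scores were deposited per peak and not per library. Leaving out a replicate was not possible for the same reason. Of 24 alternatives, 19 stayed within 1.5 times of the value reported and 5 did not: the peak count in the top 25% of scores, the median width of joined peaks and the 3 other counts of stretches. Each of these 5 keeps fewer peaks or joins them differently by construction. Causes of the smaller shifts were not tested. Limiting to the top 25% of 3L scores left 36 of 78 peaks. Coverage of 51.5% became 58.1% over the span from the first to the last peak, 46.3% with the upper 50% of scores and 61.9% with peaks joined at 1 kb. The median width of 555 bp became 718.5 bp with the upper 50% of scores and 1958 bp with peaks joined at 1 kb. The 17 stretches became 30 when joined at 500 bp, 8 at 2 kb and 3 at 5 kb. The Spearman correlation of 0.82 became 0.88 over members on the series. With a tolerance of 0.015, the share on the series was 62.8% in the locus and 81.0% among the other peaks of 3L, up from 55.1% and 75.8%. The median fold of 2.57 was 2.55 if the score is read as the probability of more than k fragments, and the background was 43.9 without the members. The highest fold, 4.72, became 5.10, at another peak, with a tolerance of 0.015. The reading as more than k fragments, the fit without the members, the highest fold and the wider tolerance for the other peaks were added after seeing the data. Without depth per library, no score can be weighed by its own replicate error.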
